A study of Homo sapiens with 6 samples.

Results

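The hypoxia and glycolysis genes are 33 listed genes that encode the enzymes of glycolysis, the transporters and regulators that feed it, and other well-known targets of the hypoxia-inducible factors (HIFs). They were listed by name, with earlier results of these data known, and 31 of the 33 had a probe set assigned to 1 gene alone, among 18417 genes tested. CA9 had no such probe set in the annotation table used here, and the probe sets of PGAM1 were shared with another gene, so neither is described. By role, 12 of 13 glycolytic enzymes, 5 of 5 glucose transporters and regulators and 14 of 15 other HIF targets were measured.

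The cells were A549, a human lung adenocarcinoma line, kept as stable cells in medium with serum, starved of serum overnight and then exposed for 48 h to VP-16. VP-16 is etoposide, which traps topoisomerase II on cut DNA. There were 3 arrays of control stable cells and 3 of stable cells labelled H2AX knockdown, H2AX being the histone variant that is phosphorylated around DNA breaks. Both groups had the drug and the starvation, no untreated array was analysed here, and the labels name no low-oxygen treatment. The labels describe 3 independent experiments per group but not how many stable lines stand behind them, so p-values measure the spread between these experiments. In such bulk RNA, fewer cells of a type and less RNA per cell cannot be told apart.

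When oxygen is scarce, HIF alpha subunits escape hydroxylation by the EGLN enzymes, pair with ARNT and bind the hypoxia response element, whose core letters are ACGTG or GCGTG. They raise glucose uptake, most steps of glycolysis and lactate production, and genes of blood vessel growth, mitophagy, acid handling and collagen modification. Tumour cells such as A549 also run glycolysis with oxygen present, and the enzymes are then among the most abundant transcripts.

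The signal of the targeted gene was not lower in the arrays labelled as its knockdown. The log2 signal of H2AX was 5.11, 5.27 and 5.26 in control replicates 1, 2 and 3 and 5.28, 5.17 and 5.49 in the knockdown-labelled ones, a difference of 0.10 (limma 95% interval −0.25 to 0.45; exact permutation test, 2-sided, p = 0.4, where 3 against 3 arrays can give 0.1 at the smallest). Directions below are therefore those of the arrays labelled H2AX knockdown. Array medians ran from 3.38 to 3.53, but the arrays differed in spread. The SD of the log2 signal over all probe sets was at least 1.77 in every control and at most 1.74 in every knockdown-labelled array. It was lowest in knockdown-labelled replicate 1 (1.5997). The part of this spread in the differences below, and in their shift with brightness, was not tested. The 10 epithelial and A549 markers summed to 1853.5 to 2409.1 (linear signal) in control and 1767.2 to 2386.4 in knockdown-labelled arrays. Among them KRT8, KRT18, KRT7, AKR1C3 and AKR1B10 read from 7.08 to 10.04 on the log2 scale, CDH1 from 5.23 to 5.71, KRT19, MUC1 and CLDN4 from 3.44 to 4.61, and EPCAM from 2.28 to 2.72. Of the markers of other cells, the 8 fibroblast genes, all with a difference above 0, summed to 85.7 to 108.3 in control and 101.1 to 122.4 in knockdown-labelled arrays (linear signal), the 5 endothelial genes to 46.8 to 61.3 and 50.9 to 64.4, and the 7 immune genes to 491.8 to 647.6 and 366.7 to 471.0, most of it CD68. The pan-leukocyte marker PTPRC read at most 2.45 (log2). These arrays carry no zero level, and the part of other cells in the differences below was not tested.

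Of the core letters of the hypoxia response element, ACGTG but not GCGTG was more frequent before these genes than before the genes tested. RefSeq promoters (GRCh38.p14) matched 29 of the 33 genes, with the first listed start used for each. In the 250 bases before the start, 14 of the 29 (48.3%) held ACGTG on either strand, against 18.7% of all 27305 promoters and 21.1% of the 14239 matched to genes tested. GCGTG was found in 10 of 29 (34.5%), against 31.9% and 39.7%. Both were searched on both strands, and a CACGTG, held by 5 of the 29 and 6.49% of all, counts as ACGTG on each strand. By role, ACGTG stood before 7 of 13 glycolytic enzymes, 7 of 12 other HIF targets and 0 of 4 transporters and regulators. LDHA had 5 such matches and LOX 4. A match is a description of letters, not of HIF binding.

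Shown here are the 250 bases before the start of the members of smallest p in each role group below that had an entry in the table (both enzymes under an unadjusted 0.05 in limma), with the motif letters in capitals. They are BNIP3 (chr10:131981924-131982173, minus strand), GAPDH (chr12:6535014-6535263, plus strand), ENO2 (chr12:6914330-6914579, plus strand) and SLC2A1 (chr1:42958869-42959118, minus strand).
BNIP3: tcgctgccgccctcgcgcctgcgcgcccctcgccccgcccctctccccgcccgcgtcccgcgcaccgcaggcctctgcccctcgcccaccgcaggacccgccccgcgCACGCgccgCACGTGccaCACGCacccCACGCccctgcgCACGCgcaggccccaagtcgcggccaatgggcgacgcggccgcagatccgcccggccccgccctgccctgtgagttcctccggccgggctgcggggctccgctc
GAPDH: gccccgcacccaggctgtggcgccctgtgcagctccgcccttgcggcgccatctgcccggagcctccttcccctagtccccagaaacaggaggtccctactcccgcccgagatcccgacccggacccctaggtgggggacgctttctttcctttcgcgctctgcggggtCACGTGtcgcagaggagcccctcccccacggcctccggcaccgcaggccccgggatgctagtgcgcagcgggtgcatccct
ENO2: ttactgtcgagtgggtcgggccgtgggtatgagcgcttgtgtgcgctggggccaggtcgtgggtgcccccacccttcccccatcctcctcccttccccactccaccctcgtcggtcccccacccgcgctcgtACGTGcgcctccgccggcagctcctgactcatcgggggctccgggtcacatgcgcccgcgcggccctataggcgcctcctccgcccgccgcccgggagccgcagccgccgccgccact
SLC2A1: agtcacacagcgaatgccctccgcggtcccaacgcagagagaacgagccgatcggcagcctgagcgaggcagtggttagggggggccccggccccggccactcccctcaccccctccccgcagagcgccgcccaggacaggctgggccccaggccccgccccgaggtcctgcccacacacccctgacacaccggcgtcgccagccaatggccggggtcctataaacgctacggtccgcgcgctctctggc
The capitals in BNIP3 form a cluster of 6 matches between 143 and 100 bases before the start, with a CACGTG among 4 GCGTG on the opposite strand. GAPDH held a single CACGTG from 81 to 76 bases before its start, ENO2 an ACGTG from 118 to 114, and the SLC2A1 window neither motif. The median difference between the groups, given in full below, was −0.31 for the 13 measured members with ACGTG and −0.17 for the 14 without, against −0.07 and −0.02 over the matched genes tested. By role the order for ACGTG alone differed, with −0.32 against −0.13 for the enzymes and −0.15 against −0.26 for the other HIF targets. With ACGTG or GCGTG counted, the enzymes had −0.31 against −0.10. The other HIF targets then had −0.31 against −0.17, with only 2 measured genes lacking both motifs. For the transporters and regulators it was −0.17 against −0.19, and over the matched genes tested −0.06 against 0.005. These medians were not tested and brightness was not held equal between them. They leave out VEGFA, BNIP3L, SLC2A3 and NDRG1, which had no promoter entry. The differences of these genes were −0.69, −0.50, 0.32 and 0.11.

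No member passed the threshold across all genes, in either direction (limma, Benjamini-Hochberg adjusted p under 0.05; lowest adjusted p of a member 0.289). Over all genes 0.0271% were called lower and 0.00543% higher. Before adjustment, 7 members were lower at a p under 0.05 in limma (background 8.38% of genes) and 0 were higher (background 3.78%). The differences, knockdown-labelled minus control, were below 0 for 25 of the 31 (background 51.5%), with a median of −0.24 on the log2 scale against −0.01 over all genes. The groups did not overlap for 9 members: 8 were lower (background 9.82%) and 1 was higher (background 7.17%).

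Brightness moved with these differences. With all genes placed in 5 equal bins by mean signal, the median difference was −0.25 in the brightest bin and 0.15 in the dimmest. Of the 31 members 21 lay in the brightest bin, where 85.3% of all genes were below 0, 22.9% were lower at an unadjusted p under 0.05 and 23.2% were lower without overlap. Among those 21 members 19 were below 0, 6 were lower at that p in limma, 7 were lower without overlap, and the median was −0.24. Over all 31, the difference was below the median of the gene's own bin for 16 and above it for 15. The median of the 21 members thus lay beside the −0.25 of all genes in their bin.

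**Figure D1:**
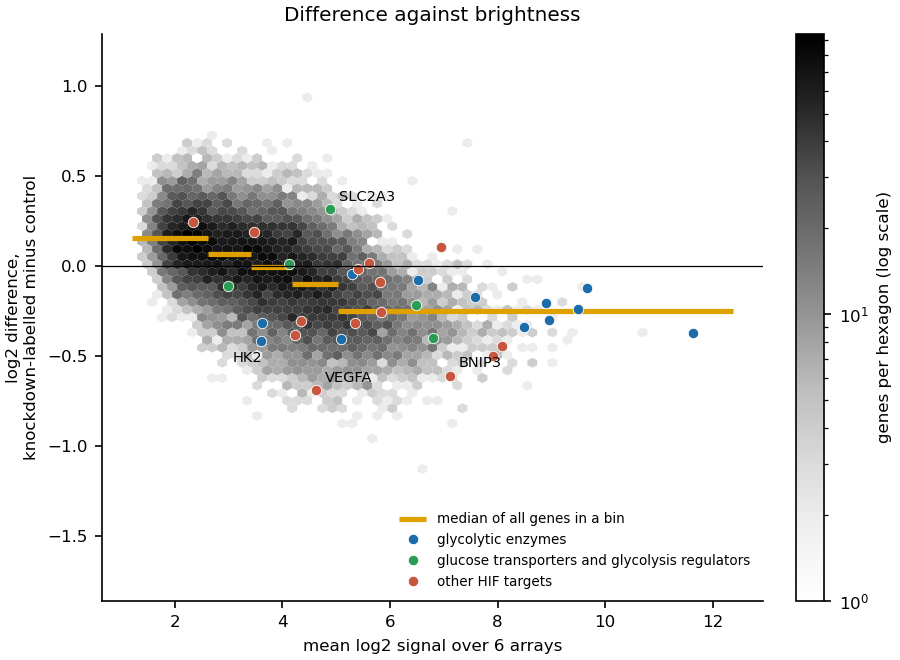
Log2 difference (knockdown-labelled minus control) against mean log2 signal for all 18417 genes (grey hexagons, darker for more genes), with the 31 members as coloured points by role and the median of each of 5 brightness bins as a line. Most members sit to the right, around the brightest bin's median of −0.25, while VEGFA, HK2 and BNIP3 lie below the lines of their bins and SLC2A3 above.

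The arrays did not contribute equally. As the median over the 12 glycolytic enzymes, the signal relative to the control mean was 0.12, −0.11 and 0.05 in control replicates 1, 2 and 3. The knockdown-labelled arrays stood at −0.39, −0.13 and −0.17, replicate 1 farthest from the controls. The brightest bin of all genes gave 0.14, −0.15 and 0.01, and −0.45, −0.15 and −0.13, in the same order. Knockdown-labelled replicate 1 was the lowest of the 6 arrays for 18 of 31 members, against 28.4% of all genes and 63.6% of those in the brightest bin. With control replicate 1 and knockdown-labelled replicate 1 both left out, 19 of 31 members were below 0 (53.7% of all genes), the median was −0.09, and 2 were lower in limma before adjustment, beside 2.94% of all genes. With all arrays that count was 7 (8.38% of all genes). Without control replicates 1, 2 and 3 the counts were 2 (3.34%), 10 (10.5%) and 4 (5.39%). Without knockdown-labelled replicates 1, 2 and 3 they were 3 (5.33%), 4 (8.05%) and 6 (10.9%).

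**Figure D2:**
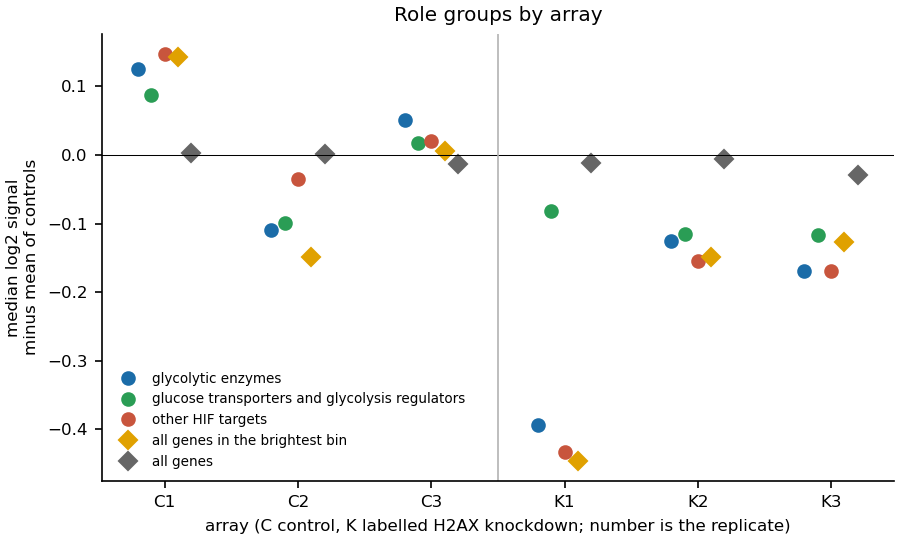
Median log2 signal of each role group in each array, minus the mean of the 3 controls, beside the same for all genes and for the brightest bin of genes (C, control; K, labelled H2AX knockdown). Enzymes followed the brightest bin closely, as did other HIF targets except in C2 (−0.03 beside −0.15 in the bin). These 2 groups were lowest in K1, at −0.39 and −0.43. The 5 transporters and regulators stayed between −0.12 and −0.08 in the K arrays.

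Quantile normalization, which gives the arrays 1 distribution, changed the picture by group. The difference was then below 0 for 18 of 31 members (background 56.2%), with a median of −0.14. At an unadjusted p under 0.05 in limma GAPDH, ALDOC and VEGFA were lower (background 5.58%) and SLC2A3 higher (background 2.54%). The groups did not overlap for 5 lower members, BNIP3, GAPDH, PFKFB4, PGK1 and SLC2A1 (background 8.94%), and 3 higher ones, HK1, PFKP and SLC2A3 (background 5.15%).

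All 12 glycolytic enzymes had a difference below 0, from −0.42 to −0.04, with a median of −0.27, and none passed the threshold. Before adjustment 2 were lower in limma (8.38% of all genes, 22.9% of the brightest bin), and 4 were lower without overlap between the groups (9.82% and 23.2%). Of the 12, 10 are in the brightest bin, and 6 were below the median of their own bin and 6 above it. After quantile normalization 8 of the 12 were still below 0, with a median of −0.15.

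GAPDH, which oxidises glyceraldehyde phosphate and is often used as a reference gene (probe set 7953385), read 11.94, 11.78 and 11.72 in control replicates 1, 2 and 3 and 11.36, 11.54 and 11.43 in the knockdown-labelled ones. The 3 control arrays were all above the 3 others, and the mean difference was −0.37 ± 0.16 (SE; 0.774 times the control signal; limma adjusted p = 0.381). It kept nearly that size after quantile normalization (−0.36) and was −0.24 after cyclic loess.

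ENO2, the neuronal-type enolase (probe set 7953532), read 5.22, 5.27 and 5.37 in the controls and 4.54, 4.96 and 5.16 in the knockdown-labelled arrays. All 3 knockdown-labelled values were lower, replicate 1 by the most. The difference was −0.41 ± 0.18 (SE, limma adjusted p = 0.403), or −0.30 after quantile normalization. ENO1, the common enolase, read 9.13, 8.77 and 9.10 against 8.41, 8.94 and 9.03. Only replicate 1 of the knockdown-labelled arrays was below the controls, and the difference of −0.20 ± 0.19 (SE) turned to 0.02 after cyclic loess.

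PGK1, the first enzyme of the pathway to make ATP, read 9.22, 8.95 and 9.13 in the controls and 8.77, 8.78 and 8.84 in the knockdown-labelled arrays. These did not overlap, and the knockdown-labelled values lay within an SD of 0.04. The difference was −0.30 ± 0.16 (SE), close to the median of its bin. LDHA, which turns pyruvate into lactate, read 9.75, 9.54 and 9.55 against 9.42, 9.29 and 9.41, also without overlap, and differed by −0.24 ± 0.16 (SE). With cyclic loess the values of PGK1 and LDHA shrank to −0.08 and −0.03.

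The hexokinases trap glucose in the cell by phosphorylating it. HK2, the inducible form (probe set 8042942), read 3.67, 3.86 and 3.92 in the controls and 2.99, 4.02 and 3.19 in the knockdown-labelled arrays. Replicates 1 and 3 were well below the controls but replicate 2 was above them, so the difference of −0.42 ± 0.23 (SE; limma adjusted p = 0.479) rests on 2 arrays. HK1, the constitutive form, stayed between 5.14 and 5.34 in all 6 arrays, with a difference of −0.04 (95% interval −0.38 to 0.29) that turned above 0 after quantile normalization (0.10).

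ALDOC, the brain-type aldolase, read 3.89, 3.92 and 3.50 in the controls and 3.40, 3.58 and 3.37 in the knockdown-labelled arrays. Its groups overlapped through control replicate 3, and the difference was −0.32 ± 0.17 (SE). Its brightness bin had a median of −0.01, and quantile normalization left it at −0.35. TPI1, which interconverts the triose phosphates, differed by −0.34 in both of its probe sets, with overlapping groups in the one used here. The remaining 3 enzymes were ALDOA, the main aldolase (−0.17), PKM, the pyruvate kinase of most tissues (−0.13), and PFKP, a phosphofructokinase (−0.08). These 3 overlapped between the groups and were at or above 0 after quantile normalization (0.06, 0.00 and 0.16). GAPDH, PGK1, TPI1, ENO1, PKM and LDHA have processed pseudogenes, so part of their signal may come from copies, and a probe set of PKM does not tell its splice forms apart.

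**Figure D3:**
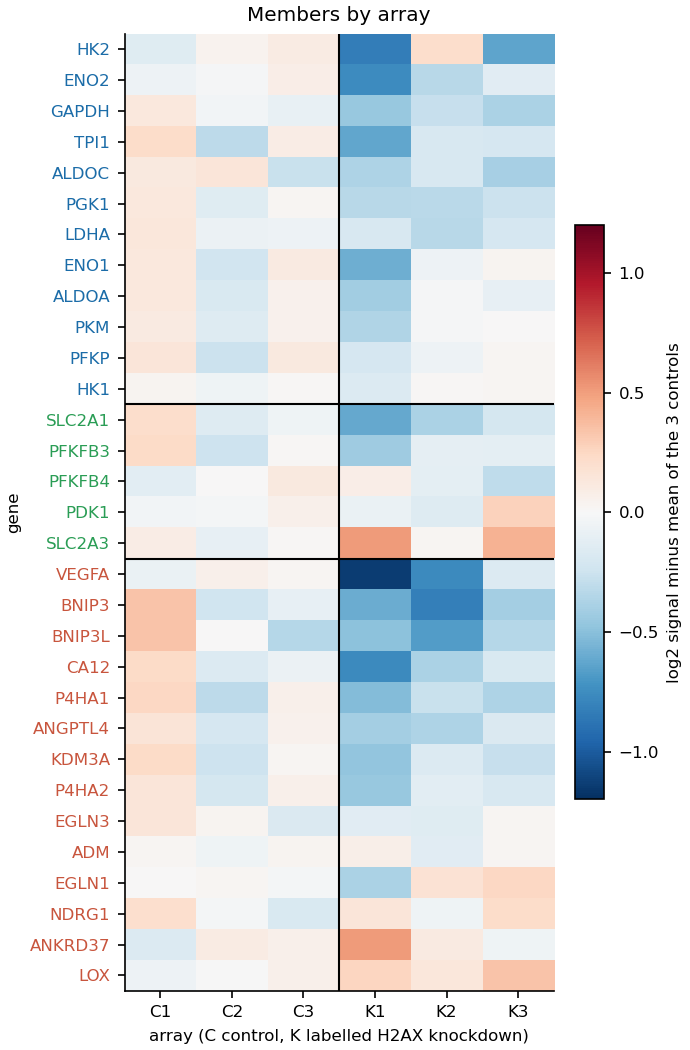
Log2 signal of each of the 31 members in each array minus the mean of the 3 controls, as colour (blue lower, red higher; gene names coloured by role as in the other plots). The blue in K1 runs through most of the glycolytic enzymes, and GAPDH, ENO2, PGK1 and LDHA are below the controls in K2 too. VEGFA, BNIP3 and BNIP3L are blue in both K1 and K2, as are SLC2A1 and CA12 more faintly in K2. SLC2A3 is red in K1 and K3.

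Neither glucose transporter passed the threshold. SLC2A1, the widespread transporter GLUT1 (probe set 7915472), read 7.21, 6.84 and 6.94 in the controls and 6.38, 6.62 and 6.78 in the knockdown-labelled arrays. All 3 of the latter were lower, by −0.40 ± 0.17 on average (SE, limma adjusted p = 0.389). The difference was −0.17 after quantile normalization and −0.13 after cyclic loess. SLC2A3, the high-affinity transporter GLUT3 (probe set 7960865), read 4.82, 4.64 and 4.74 against 5.24, 4.76 and 5.15. Replicates 1 and 3 were above every control and replicate 2 was within them, a difference of 0.32 ± 0.17 (SE; limma adjusted p = 0.476). SLC2A3 is nearly identical to SLC2A14, so its signal is uncertain as to source.

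The ratio of the transporters within an array is free of any shift that both share. Taken as SLC2A1 minus SLC2A3 on the log2 scale, it was 2.39, 2.20 and 2.20 in the controls and 1.14, 1.86 and 1.63 in the knockdown-labelled arrays. These did not overlap, and the change of the ratio was −0.72 ± 0.22 (SE; exact permutation test, 2-sided, p = 0.1, the smallest possible, and 0.8 after Benjamini-Hochberg adjustment over 8 pairs of related members, which were chosen with earlier results known). It kept its sign in all 10 alternatives run for it. The bins of the 2 genes differ, with medians of −0.25 and −0.10.

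In the other 7 pairs of related members the groups overlapped. The change of the ratio was 0.37 ± 0.30 (SE) for HK1 over HK2, 0.20 ± 0.12 for ENO1 over ENO2, 0.15 ± 0.21 for ALDOA over ALDOC, and −0.10 ± 0.28 for PFKFB3 over PFKFB4. It was −0.13 ± 0.07 for P4HA1 over P4HA2, −0.11 ± 0.14 for BNIP3 over BNIP3L and 0.10 ± 0.19 for EGLN1 over EGLN3. The exact permutation p ran from 0.2 to 0.8 for these, and all were 0.8 when adjusted. With 3 against 3 arrays such a test cannot reach 0.05, and these values do not show that the paralogs respond alike.

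Of the regulators, PFKFB3 and PFKFB4 set the level of the sugar phosphate that activates phosphofructokinase. PFKFB3 had a difference of −0.22 ± 0.18 (SE) with overlapping groups, and it was 0.01 after quantile normalization. PFKFB4 read 2.74 to 3.16 over the 6 arrays, with −0.11 ± 0.17 (SE). PDK1, the kinase that shuts pyruvate dehydrogenase, read 4.08, 4.09 and 4.17 in the controls and 4.03, 3.96 and 4.38 in the knockdown-labelled arrays, a difference of 0.01 (95% interval −0.35 to 0.37). As a group the 5 transporters and regulators had a median of −0.11, which became 0.01 with quantile normalization. Of the 5, SLC2A1 alone was lower before adjustment in limma (8.38% of all genes, 22.9% of its brightness bin), and 0 were called.

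**Figure D4:**
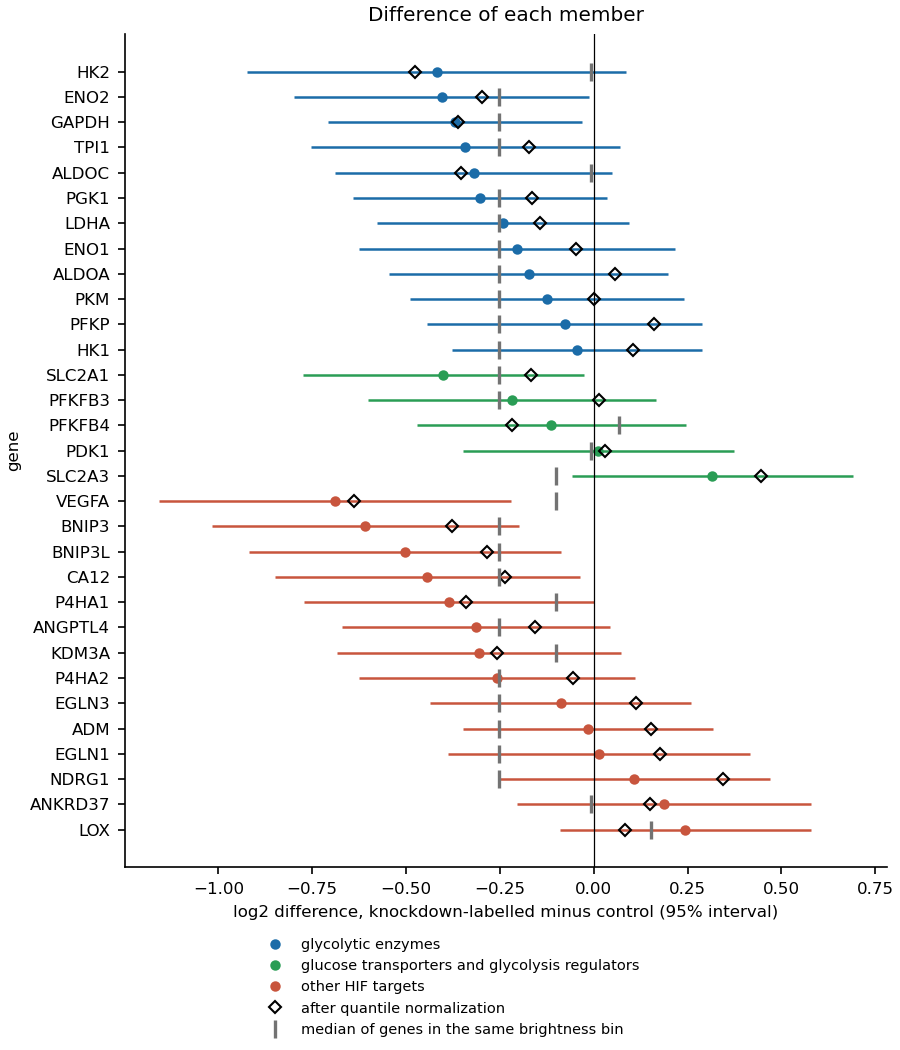
Log2 difference (knockdown-labelled minus control) of each member with its 95% interval from limma, by role, with the value after quantile normalization (diamonds) and the median of all genes in the same brightness bin (grey ticks). The intervals of VEGFA, BNIP3, BNIP3L, CA12, SLC2A1, GAPDH and ENO2 lie below 0 before adjustment, and SLC2A3 has the highest value, 0.32.

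The other HIF targets held the lowest values of all members and also most of those above 0. Their 14 differences ran from −0.69 to 0.24 with a median of −0.28, with 10 below 0 and 4 above. At an unadjusted p under 0.05 in limma 4 were lower, VEGFA, BNIP3, BNIP3L and CA12, and 0 were called. That p was met by 8.38% of all genes and by 22.9% in the brightest bin, which holds 9 of the 14. After quantile normalization 8 were below 0, and the median was −0.11.

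VEGFA, the main growth factor of blood vessel formation (probe set 8119898), read 4.90, 5.03 and 4.99 in the controls and 3.84, 4.21 and 4.81 in the knockdown-labelled arrays. The controls lay close together, replicates 1 and 2 of the other group were far below them, and replicate 3 was only just below. The difference was −0.69 ± 0.22 (SE; 0.621 times the control signal; limma adjusted p = 0.291), the lowest of the members. It differed by −0.59 from the median of its bin and stayed at −0.64 after quantile normalization and −0.60 after cyclic loess. Over the alternatives it ran from −0.95, without knockdown-labelled replicate 3, to −0.46, without knockdown-labelled replicate 1. The adjusted p of VEGFA in limma ran from 0.0725, with array weights (control replicate 3 weighted most), to 0.999.

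BNIP3 and BNIP3L are membrane proteins of mitochondria that recruit the autophagy machinery. BNIP3 (probe set 7937079) read 7.76, 7.18 and 7.32 in the controls and 6.83, 6.60 and 7.01 in the knockdown-labelled arrays. The groups were apart, and here knockdown-labelled replicate 2, not 1, was the lowest array. The difference was −0.61 ± 0.19 (SE; 0.656 times the control signal; limma adjusted p = 0.289), −0.38 after quantile normalization. BNIP3L (probe set 8145454) had the same order within the knockdown-labelled group, with 8.51, 8.17 and 7.83 in the controls and 7.68, 7.50 and 7.83 in the others. Knockdown-labelled replicate 3 met control replicate 3, and the difference was −0.50 ± 0.19 (SE, limma adjusted p = 0.357), or −0.28 after quantile normalization.

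CA12, a carbonic anhydrase of the cell surface that helps export acid (probe set 7989501), read 8.53, 8.14 and 8.24 in the controls and 7.54, 7.93 and 8.12 in the knockdown-labelled arrays. All 3 of the latter were lower, replicate 3 by little, and the difference was −0.44 ± 0.19 (SE; limma adjusted p = 0.383). Without control replicate 1 and knockdown-labelled replicate 1 it was −0.17.

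**Figure D5:**
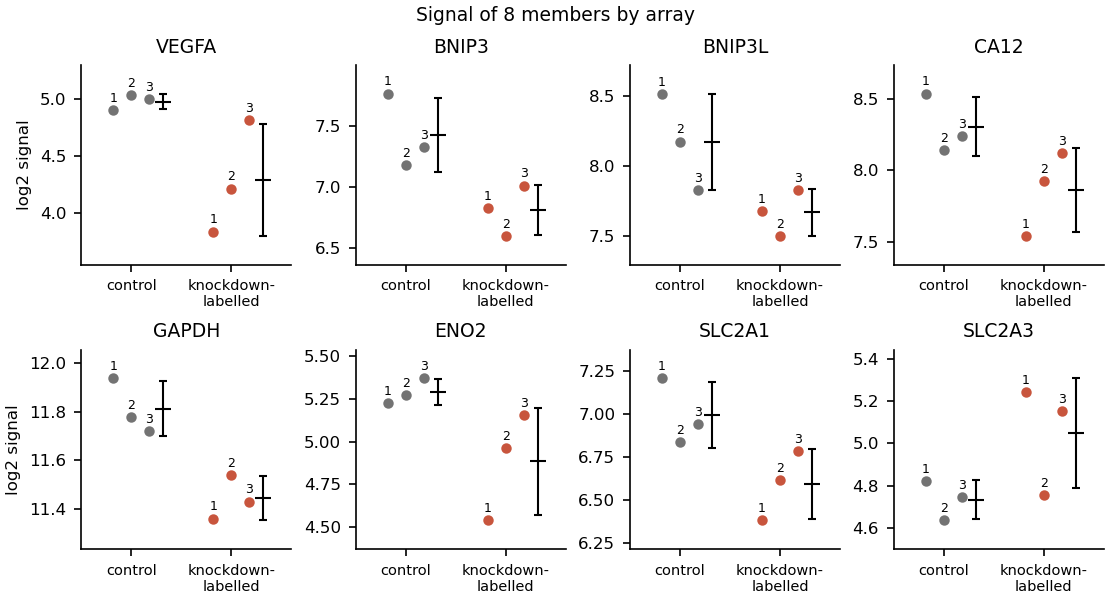
Log2 signal of 8 members in each array, with the replicate number at each point and the mean ± SD (n = 3) beside each group; each panel has its own scale. For VEGFA, BNIP3, CA12, GAPDH, ENO2 and SLC2A1 the 3 knockdown-labelled points lie below the 3 controls. The groups of BNIP3L overlap slightly at 7.83, and SLC2A3 is the reverse, with replicates 1 and 3 above the controls.

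None of the collagen-modifying members passed the threshold. P4HA1 and P4HA2, catalytic subunits of collagen prolyl hydroxylase, had differences of −0.39 ± 0.18 and −0.26 ± 0.17 (SE), with overlapping groups. P4HA1 read 4.67, 4.12 and 4.49 against 3.91, 4.16 and 4.06. LOX, the enzyme that crosslinks collagen, was the single member higher without overlap, with 2.16, 2.22 and 2.29 in the controls and 2.48, 2.36 and 2.56 in the knockdown-labelled arrays (0.24 ± 0.15, SE). It was at the 13.3rd percentile of signal, in the dimmest bin, where the median of all genes was 0.15 and 19.1% of genes were higher without overlap.

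KDM3A, a histone demethylase, and ANGPTL4, a secreted inhibitor of lipoprotein lipase, each had a difference of −0.31 ± 0.18 and −0.31 ± 0.17 (SE), with overlapping groups. Among the oxygen sensors that mark HIF for destruction, EGLN1 read 5.60, 5.62 and 5.57 in the controls and 5.21, 5.77 and 5.85 in the knockdown-labelled arrays. The 3 controls were almost equal while the others lay on both sides of them, with a mean difference of 0.01 (95% interval −0.39 to 0.42). EGLN3 had −0.09 (95% interval −0.43 to 0.26). ADM, the vasodilator peptide adrenomedullin, stayed between 5.28 and 5.48 in all 6 arrays (difference −0.02). NDRG1, a gene of stress and differentiation, was at 0.11 ± 0.17 (SE), and at 0.35 after quantile normalization, against a median of −0.25 in its bin before that step. ANKRD37, an ankyrin repeat gene, read 3.89 in knockdown-labelled replicate 1 and between 3.22 and 3.49 elsewhere.

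The rest of the pathway was read from further lists, none of which held a gene past the threshold. Among 14 HIF subunits and regulators 13 were below 0, with a median of −0.17, and limma put 1 lower (8.38% of all genes) and 0 higher before adjustment. Of the 14, 7 were below the median of their own brightness bin, and the list's median was −0.04 after quantile normalization. HIF1A itself, the oxygen-regulated subunit, read 8.05, 7.59 and 7.67 in the controls and 7.21, 7.31 and 7.66 in the knockdown-labelled arrays. Knockdown-labelled replicate 3 lay within the controls, and the difference was −0.38 ± 0.18 (SE; limma adjusted p = 0.434), or −0.16 after quantile normalization. ELOC, which links VHL to its ubiquitin ligase, had −0.68 ± 0.19 (SE) without overlap. In its bin, the brightest, 23.2% of all genes were lower without overlap. Of 39 further HIF targets 25 were below 0, with a median of −0.07, and 5 were lower (8.38% of all genes) and 0 higher by the same measure. The smallest p were those of WSB1, a ubiquitin ligase adaptor (−0.65 ± 0.20, SE), and TFRC, the transferrin receptor (−0.61 ± 0.20, SE).

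Further glycolysis and gluconeogenesis genes (31 measured) had a median of −0.05, with 19 below 0, and before adjustment 3 were lower (8.38% of all genes) and 1 was higher (3.78%) in limma. The higher one was PKLR, the pyruvate kinase of liver and red cells, which read 3.74, 3.82 and 3.83 in the controls and 4.73, 4.21 and 4.44 in the knockdown-labelled arrays. The groups were clearly apart (7.17% of all genes were higher without overlap). The difference was 0.66 ± 0.17 (SE, limma adjusted p = 0.257), and 0.70 after quantile normalization. ENO3, the muscle enolase, had −0.43 ± 0.16 (SE), also without overlap (9.82% of all genes were lower without overlap). The pentose phosphate pathway (8 measured, median −0.11, 0 either way at that p in limma) had its smallest p in RPE, an epimerase (−0.46), and TALDO1, transaldolase (−0.27).

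Pyruvate dehydrogenase and TCA cycle genes, which burn pyruvate in mitochondria, were lower than the glycolytic enzymes in median (−0.34, 20 measured, 18 below 0), and 7 were lower (8.38% of all genes) and 0 higher by limma before adjustment. Of these 20 genes 15 are in the brightest bin, where 22.9% of all genes were lower by that measure. IDH3A, a subunit of isocitrate dehydrogenase, read at least 7.63 in every control and 6.74, 6.87 and 7.41 in the knockdown-labelled arrays (−0.79 ± 0.20, SE; limma adjusted p = 0.229). MPC2, part of the carrier that brings pyruvate into mitochondria, had −0.64 ± 0.17 (SE). Both were lower without overlap, and both lie in the brightest bin, where 23.2% of all genes were so. They are named here for having the smallest p of their list. After quantile normalization the median of the list was −0.16, beside −0.15 for the glycolytic enzymes. Without control replicate 1 and knockdown-labelled replicate 1 the order turned, with −0.10 beside −0.14. The difference between the lists was not tested.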

How the data were processed

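Signals are the deposited log2 values of 33297 probe sets on 6 Affymetrix arrays, obtained with RMA, per the submitters' processing notes; the log2 scale was read from the values, and the version is not given in the sources used here. RMA compresses differences of dim probe sets. No column was left unused and no arrays were identical. Platform annotation gave 19460 probe sets 1 gene, 1754 several and 12083 none; the first kind was used, and symbols matched by Entrez number for 19429 (0 changed). The probe set with the highest mean stood for each of 18417 genes. Genes were tested with limma 3.58.1 (R 4.3.3; lmFit, eBayes, no covariate; 2-sided), p-values were adjusted over all genes by Benjamini-Hochberg, and 0.05 was the threshold; pairs and H2AX with exact permutation tests. Values after ± are SEs or SDs as marked. On simulated arrays (18417 genes, 3 against 3) the test recovered 59% of 100 genes changed by 1 log2 unit and 98% of 100 changed by 2, with 7 false among 164 calls. The simulated noise was drawn separately for each gene, without the shift with brightness seen in these arrays. Every member differed by less than 1 log2 unit, and no smaller change was simulated, so these rates do not describe the members.

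Members, lists and pairs were chosen with earlier results of these data known. Named genes are all members measured, the 2 genes of smallest p in each further list, H2AX and marker genes. Alternatives were a replicate block, only genes at or above the median signal, quantile normalization, cyclic loess (3 iterations), array medians subtracted, all probe sets of a gene averaged, a variance trend on intensity (robust), array weights, each array left out, and both replicates 1 left out. Promoters were the 250 bases before RefSeq starts. Figures used matplotlib 3.10.9.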

Additional observations from a re-analysis of the deposited data

How the results depend on the processing

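No member was past the threshold in any of the 15 alternatives (lowest limma adjusted p 0.0725, VEGFA with array weights). Between 2 and 10 members were lower at an unadjusted p under 0.05 in limma, beside 2.94% to 14.1% of the genes tested. The 14.1% is of the 9209 genes at or above the median signal. The highest share of all genes was 12%, with array weights. With the replicate number as a block, 3 genes passed over all genes against 6 without it. At an unadjusted p under 0.05 in limma 4 members were then lower against 7 (6.97% of all genes against 8.38%). The correlation of deviations over genes between arrays of the same number was −0.31, −0.02 and 0.07. Array shifts with brightness enter these deviations, so the correlations cannot decide whether the numbers pair the arrays. Genes past the threshold numbered 16 with only genes at or above the median signal. They numbered 0 after quantile normalization (1028 genes lower and 467 higher by limma before adjustment) or cyclic loess (958 and 548). With probe sets averaged 3 passed, and 191 with array weights. These weights were 5.03 for control replicate 3 and from 0.41 to 1.22 for the other arrays. With 1 array left out 0 to 9 passed, and 0 without both replicates 1 (542 lower and 334 higher by limma before adjustment). Single members kept their sign in 427 values under the alternatives and turned in 33; 20 of 31 members never turned, and since none was called this does not show stable calls.

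The median of the glycolytic enzymes was −0.054 after cyclic loess. For the transporters and regulators it was 0.013 after quantile normalization, 0.037 after cyclic loess and −0.18 with array weights, and for the other HIF targets −0.11 and −0.081 after these normalizations. Further glycolysis genes had −0.12 with the filter and −0.096 with array medians subtracted, further HIF targets −0.15 with the filter, HIF subunits −0.019 and TCA cycle genes −0.13 after cyclic loess. With 1 array, or both replicates 1, left out, the medians ranged from −0.30 to −0.14 for the enzymes, −0.12 to 0.0024 for the transporters and regulators, −0.39 to −0.096 for the other HIF targets, −0.10 to 0.0008 for further glycolysis genes and −0.46 to −0.10 for TCA cycle genes.

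Signs turned after quantile normalization and cyclic loess for HK1 (0.10, 0.13), PFKP (0.16, 0.18), ALDOA (0.057, 0.090), PKM (0.0007, 0.080), PFKFB3 (0.013, 0.043), ADM (0.15, 0.17) and EGLN3 (0.11, 0.14), and after cyclic loess for ENO1 (0.022). PDK1 was −0.037 with array medians subtracted and −0.038 with array weights, EGLN1 −0.035 with array medians subtracted and EGLN3 0.029 with array weights. With 1 array or both replicates 1 left out, differences on both sides of 0 were seen for HK1 (−0.077 to 0.034), PFKP (−0.21 to 0.058), ALDOA (−0.27 to 0.011), ENO1 (−0.32 to 0.052), PKM (−0.20 to 0.046), PFKFB3 (−0.34 to 0.0024), PDK1 (−0.12 to 0.096), ADM (−0.058 to 0.045), ANKRD37 (−0.052 to 0.31), EGLN1 (−0.10 to 0.22) and EGLN3 (−0.18 to 0.0086). The change of the ratio PFKFB3 over PFKFB4 turned to 0.23 after quantile normalization and 0.25 after cyclic loess. With arrays left out it ranged from −0.25 to 0.27, ALDOA over ALDOC from −0.020 to 0.31, BNIP3 over BNIP3L from −0.23 to 0.017 and EGLN1 over EGLN3 from −0.0065 to 0.27. The cause of these changes was not tested.

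With 3 arrays a group, and no zero level or saturation mark in RMA values, the precision is limited by their number.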
